A study of Saccharomyces cerevisiae with 36 samples.

Results

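The genes described are 47 yeast genes that encode enzymes of amino acid biosynthesis outside the sulfur pathway, out of 6697 genes in the count table. They were chosen by name from the ARG, CPA, HIS, ILV, BAT, LEU, LYS, SER, TRP, ARO, HOM and THR genes together with GLT1, GDH1 and GLN1. RNA sequencing was done on Saccharomyces cerevisiae of the W303 Ade+ background, in which the RNA helicase Ded1 carries an mCherry tag. The group called WT has the genotype Ded1-mCherry and the group called IDRm has Ded1_IDRm-mCherry, so the reference strain also carries the tag. The labels do not spell out what IDRm changes. After growth at 30 °C, cultures spent 10 min at 30, 40 or 42 °C, and libraries were made from total RNA, from the insoluble fraction (called pellet here) and from the soluble fraction. There were 18 groups (strain by temperature by fraction) with 2 libraries in each, and all of them were depleted of ribosomal RNA. Per the labels' protocols precultures were started in duplicate and a main culture was divided among the 3 temperatures, so libraries of different temperatures and fractions share cultures.

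Yeast can build every amino acid from ammonia and carbon skeletons of central metabolism. GDH1, GLN1 and GLT1 bring ammonia into glutamate and glutamine, which donate the nitrogen used by most of the other pathways. The transcription factor Gcn4 raises many of these genes when cells run short of amino acids, and its own production is controlled mainly at translation. Leu3 and Lys14 act on genes of leucine and lysine synthesis. Ded1 helps ribosomes scan messenger RNAs from the cap to the start codon.

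The 47 genes fall into 9 pathways. The arginine genes include CPA1 (YOR303W) for the small subunit of carbamoyl phosphate synthetase, ARG5,6 (YER069W) and ARG8 (YOL140W) for steps towards ornithine, ARG3 (YJL088W) for ornithine carbamoyltransferase, and ARG1 (YOL058W) and ARG4 (YHR018C) for the closing steps. The histidine genes are HIS1 (YER055C) for the first step, HIS7 (YBR248C), HIS5 (YIL116W) and HIS4 (YCL030C), which encodes an enzyme with several activities. The branched-chain genes are ILV1 (YER086W) for threonine deaminase, ILV2 (YMR108W) and ILV6 (YCL009C) for the catalytic and regulatory subunits of acetolactate synthase, ILV5 (YLR355C), ILV3 (YJR016C), and the aminotransferase genes BAT1 (YHR208W) and BAT2 (YJR148W). The leucine branch has LEU4 (YNL104C) and LEU9 (YOR108W) for isopropylmalate synthase and LEU1 (YGL009C) for the isomerase. The lysine genes are LYS20 (YDL182W) and LYS21 (YDL131W) for homocitrate synthase, followed by LYS4 (YDR234W), LYS12 (YIL094C), LYS2 (YBR115C), LYS9 (YNR050C) and LYS1 (YIR034C). The serine genes are SER3 (YER081W) and SER33 (YIL074C) for phosphoglycerate dehydrogenase, SER1 (YOR184W) for the aminotransferase and SER2 (YGR208W) for the phosphatase. The aromatic genes are ARO3 (YDR035W) and ARO4 (YBR249C) for the entry step, ARO1 (YDR127W) for a large enzyme of several steps, ARO2 (YGL148W) for chorismate synthase, and TRP2 (YER090W), TRP3 (YKL211C) and TRP5 (YGL026C) of the tryptophan branch. The aspartate-threonine genes are HOM3 (YER052C) for aspartate kinase, HOM2 (YDR158W), HOM6 (YJR139C), THR1 (YHR025W) and THR4 (YCR053W). Ammonia assimilation is represented by GDH1 (YOR375C) for glutamate dehydrogenase, GLN1 (YPR035W) for glutamine synthetase and GLT1 (YDL171C) for glutamate synthase.

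The DNA letters TGACTCA, which Gcn4 is known to bind, were searched on both strands of the 400 bases before each start codon in the R64 reference genome of strain S288C, which is not W303. They were found before 25 of the 47 genes (53.2%), against 203 of 5988 protein-coding genes (3.39%). All 4 histidine genes, all 3 leucine genes and 6 of 7 arginine genes had a match, with CPA1 the arginine gene without one. No serine gene and no ammonia assimilation gene had one. The Leu3 motif, CCGG on each side of any 2 bases, which reads the same on both strands, were found before 3 of the 47 genes (6.38%) and 11 of the 5988 (0.184%), and those 3 were ILV5, BAT1 and LEU1. The Lys14 letters TCCNNNGGA, also the same on both strands, were found before 6 of the 47 genes (12.8%), 4 of them lysine genes, and 277 of the 5988 (4.63%). A match is a description of the letters and not a measured binding site. The windows below come from the RefSeq sequence of R64, in the direction of the gene, with the matched letters in capitals. They are shown for 7 genes with a match whose heat change differed between the strains, and for ILV5 and LYS1, whose total RNA moved most at 40 °C in each direction. In HIS7 and LYS1 the Gcn4 match lies on the other strand and reads TGAGTCA.
ARG1 (Gcn4 letters, chrXV:218854-218883, plus strand, match starting 345 bases before the start codon): gtgattttttagTGACTCAtgtcgcatttg
ARG4 (Gcn4 letters, chrVIII:141564-141593, minus strand, match starting 179 bases before the start codon): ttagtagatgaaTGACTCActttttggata
ARG5,6 (Gcn4 letters, chrV:295175-295204, plus strand, match starting 223 bases before the start codon): ttcttatccgaaTGACTCAgtctacatcaa
HIS4 (Gcn4 letters, chrIII:68515-68544, minus strand, match starting 199 bases before the start codon): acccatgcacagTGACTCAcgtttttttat
HIS5 (Gcn4 letters, chrIX:142714-142743, plus strand, match starting 202 bases before the start codon): tcttggatctgtTGACTCActtcaattgat
HIS7 (Gcn4 letters, chrII:716679-716708, minus strand, match starting 231 bases before the start codon): gcaaaaaaaaatTGAGTCAtatcgtagctt
HOM3 (Gcn4 letters, chrV:258224-258253, minus strand, match starting 283 bases before the start codon): ttttcaggcccaTGACTCAccttttctttc
ILV5 (Gcn4 letters, chrXII:839547-839576, minus strand, match starting 311 bases before the start codon): ggtggctgtcagTGACTCAtccgcgtttcg
ILV5 (Gcn4 letters, chrXII:839376-839405, minus strand, match starting 140 bases before the start codon): gatgacctaactTGACTCAatggcttttac
ILV5 (Leu3 letters, chrXII:839613-839642, minus strand, match starting 377 bases before the start codon): tagcggtctcctCCGGTACCGGttctgcca
LYS1 (Gcn4 letters, chrIX:420969-420998, minus strand, match starting 250 bases before the start codon): atactaagtcgaTGAGTCAaaaaagactct
LYS1 (Lys14 letters, chrIX:420915-420944, minus strand, match starting 196 bases before the start codon): ttatttttttttTCCAGCGGAatttggaat

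Library totals ran from 4934241 to 13730247 counts. Levels are in CPM (a library's counts scaled to a common library size, with trimmed mean of M values factors, TMM), separately for total RNA and for the fractions, so levels are not compared across these. Replicates correlated at 0.954 or more over 4444 genes, lowest for WT soluble RNA at 42 °C, where the 47 genes summed to 26266 CPM in replicate 1 and 38208 CPM in replicate 2. A gene was called when its adjusted p was under 0.05 (edgeR quasi-likelihood test, Benjamini-Hochberg over all genes tested), and values after ± are standard errors of the log2 difference. DED1 RNA at 30 °C was called lower in IDRm than in WT (-0.67 ± 0.17, log2). DED1 is the gene altered in IDRm, and whether its reads matched the R64 reference equally well in both strains was not tested. HSP104, a heat shock chaperone gene, rose by 5.04 ± 0.16 in WT and 5.13 ± 0.16 in IDRm at 40 °C (log2). Each library is scaled within itself, so less RNA of a gene per cell and more of the other RNA cannot be told apart.

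Heat lowered most of the 47 transcripts in WT total RNA. At 40 °C 36 of the 47 fell and 2 rose, where 32.6% of all 6090 genes tested fell and 37.1% rose. The median log2 change of the 47 genes was -0.62, against 0.07 over all genes. At 42 °C 35 fell and 0 rose (all genes: 28.1% fell and 33.3% rose), with a median of -0.65 against 0.04. The summed level of the 47 genes in the WT total RNA libraries was 37536 and 32616 CPM at 30 °C, 19556 and 19899 CPM at 40 °C and 19323 and 21569.6 CPM at 42 °C. In IDRm it was 31241 and 30877 CPM, 20551 and 21459 CPM and 24517 and 25782 CPM. Per kilobase of coding sequence, the mean level in WT total RNA at 30 °C ran from 14.6 CPM for LYS1 to 2066 CPM for ILV5. The pathways moved to different extents at 40 °C. The median log2 change was lowest for ammonia assimilation (-1.41), where GLT1 and GLN1 fell and GDH1 was at -0.04 ± 0.16. It was -0.98 for serine with 4 of 4 genes lower, -0.92 for arginine with 6 of 7 lower and -0.83 for histidine with 3 of 4 lower. It was -0.74 for the aromatic genes with 6 of 7 lower, and -0.61 for the branched-chain genes with 5 of 7 lower and ILV2 higher. Lysine (-0.44, 6 of 7 lower and LYS1 higher), leucine (-0.42, 2 of 3 lower) and aspartate-threonine (-0.19, 2 of 5 lower) had the medians nearest to 0. At 42 °C the lysine pathway stood at a median of -0.04 with only LYS4 and LYS2 lower, while all 4 histidine genes (-0.85) and 6 of 7 arginine genes (-1.19) were lower. The highest member at 42 °C was ILV2, not called at 0.16 ± 0.12.

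**Figure D1:**
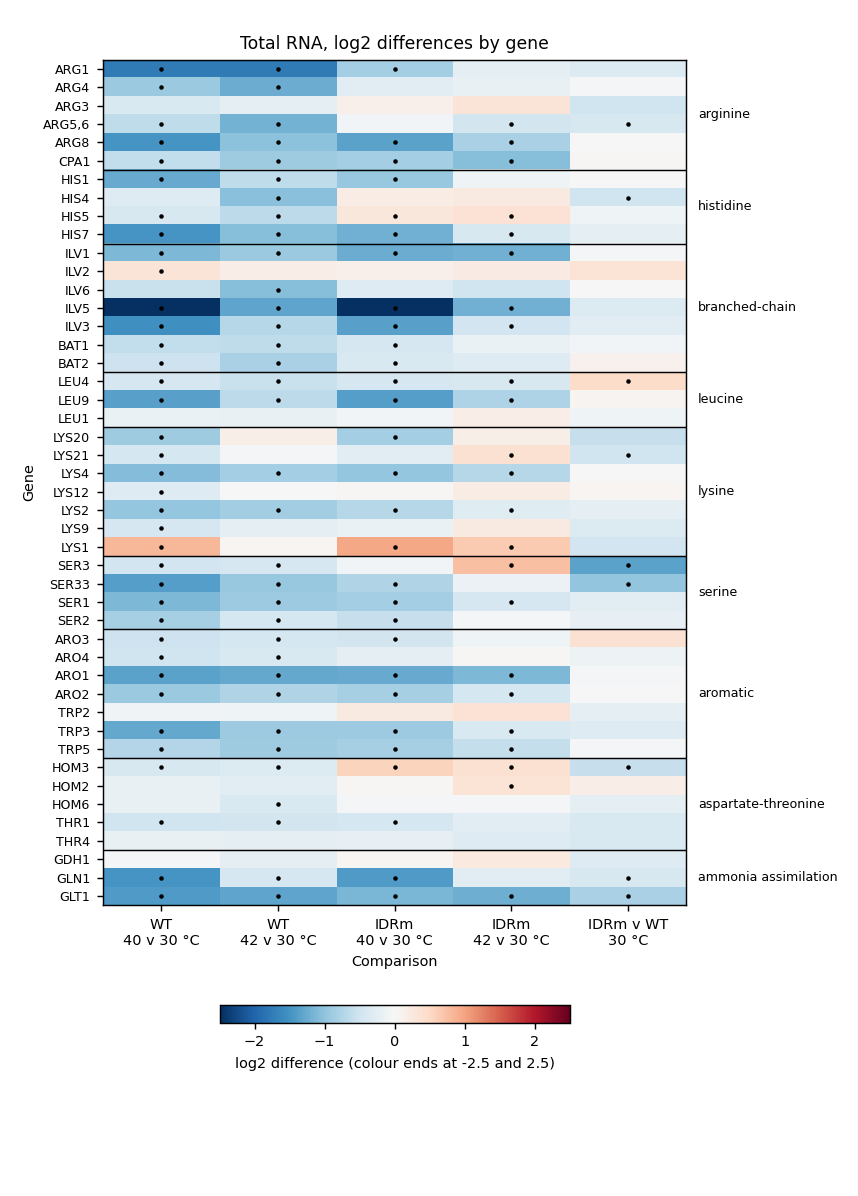
Log2 differences of the named members in total RNA, 1 row per gene grouped by pathway and 1 column per comparison; blue is lower, red is higher, the colour scale ends at -2.5 and 2.5, and a dot marks an adjusted p under 0.05. Blue fills most of both WT columns, with LYS1 the clearest red row at 40 °C in both strains.

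The following values are levels in each total RNA library for 1 gene in each of 8 pathways, the one with the largest change at 40 °C in WT among genes averaging at least 32 CPM. ILV5, for the reductoisomerase of isoleucine and valine synthesis, had the largest fall at 40 °C in both strains. It stood in WT at 2576 and 2333 CPM at 30 °C, 245 and 227 CPM at 40 °C, and 946 and 1010.3 CPM at 42 °C. In IDRm it stood at 2020.4 and 1855 CPM at 30 °C, 272 and 351 CPM at 40 °C, and 884 and 810.2 CPM at 42 °C. The level at 40 °C was below that at 42 °C in every library of both strains. The log2 change in WT was -3.38 ± 0.15 at 40 °C, a 10.4-fold decrease, and -1.33 ± 0.13 at 42 °C.

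HIS7, for imidazole glycerol phosphate synthase, stood in WT at 456 and 441 CPM at 30 °C, 162 and 161 CPM at 40 °C, and 189.7 and 240.4 CPM at 42 °C. In IDRm it stood at 389 and 384 CPM at 30 °C, 164 and 174 CPM at 40 °C, and 295 and 293 CPM at 42 °C. At 40 °C the highest WT and the lowest IDRm library lay next to each other, while at 42 °C both IDRm libraries were well above both WT libraries. GLN1, for glutamine synthetase, stood in WT at 1282 and 1248 CPM at 30 °C, 423 and 487 CPM at 40 °C, and 872 and 1009 CPM at 42 °C, and in IDRm at 1004 and 916 CPM at 30 °C, 336 and 379 CPM at 40 °C, and 751 and 847 CPM at 42 °C. Like ILV5 it was lower at 40 °C than at 42 °C in every library of both strains.

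ARO1, for several steps of the shikimate pathway, stood in WT at 2112 and 1784 CPM at 30 °C, 774 and 775 CPM at 40 °C, and 736 and 864 CPM at 42 °C. In IDRm it stood at 1948 and 1895 CPM at 30 °C, 812 and 803 CPM at 40 °C, and 857 and 913 CPM at 42 °C. Both heated groups lay far below 30 °C in both strains, and the difference of 42 from 40 °C was not called (0.05 ± 0.12 in WT, log2, adjusted p = 0.784). LYS4, for homoaconitase, stood in WT at 357 and 333 CPM at 30 °C, 166 and 159.6 CPM at 40 °C, and 175 and 206 CPM at 42 °C, and in IDRm at 361 and 331 CPM at 30 °C, 171 and 181 CPM at 40 °C, and 204 and 217 CPM at 42 °C. Its heated libraries were below its 30 °C libraries in both strains.

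LEU9, for an isopropylmalate synthase, stood in WT at 358 and 298 CPM at 30 °C, 123 and 134 CPM at 40 °C, and 199.6 and 219 CPM at 42 °C, and in IDRm at 346 and 338 CPM at 30 °C, 125 and 138 CPM at 40 °C, and 191 and 208 CPM at 42 °C. The order 30 °C, 42 °C, 40 °C held in every library. SER33, for phosphoglycerate dehydrogenase, stood in WT at 312 and 301 CPM at 30 °C, 121 and 114 CPM at 40 °C, and 167 and 151 CPM at 42 °C, and in IDRm at 156 and 156 CPM at 30 °C, 89.3 and 95.8 CPM at 40 °C, and 152 and 128 CPM at 42 °C. At 30 °C the WT libraries were about as far above the IDRm libraries as above the WT libraries at 42 °C. THR1, for homoserine kinase, stood in WT at 75.9 and 67.5 CPM at 30 °C, 46.2 and 55.5 CPM at 40 °C, and 54.1 and 50.2 CPM at 42 °C, and in IDRm at 57 and 53.2 CPM at 30 °C, 42.8 and 39 CPM at 40 °C, and 48.8 and 43.3 CPM at 42 °C. Its heat change in WT at 40 °C, the largest of its pathway, was -0.49 ± 0.13 (log2, adjusted p = 0.00249).

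**Figure D2:**
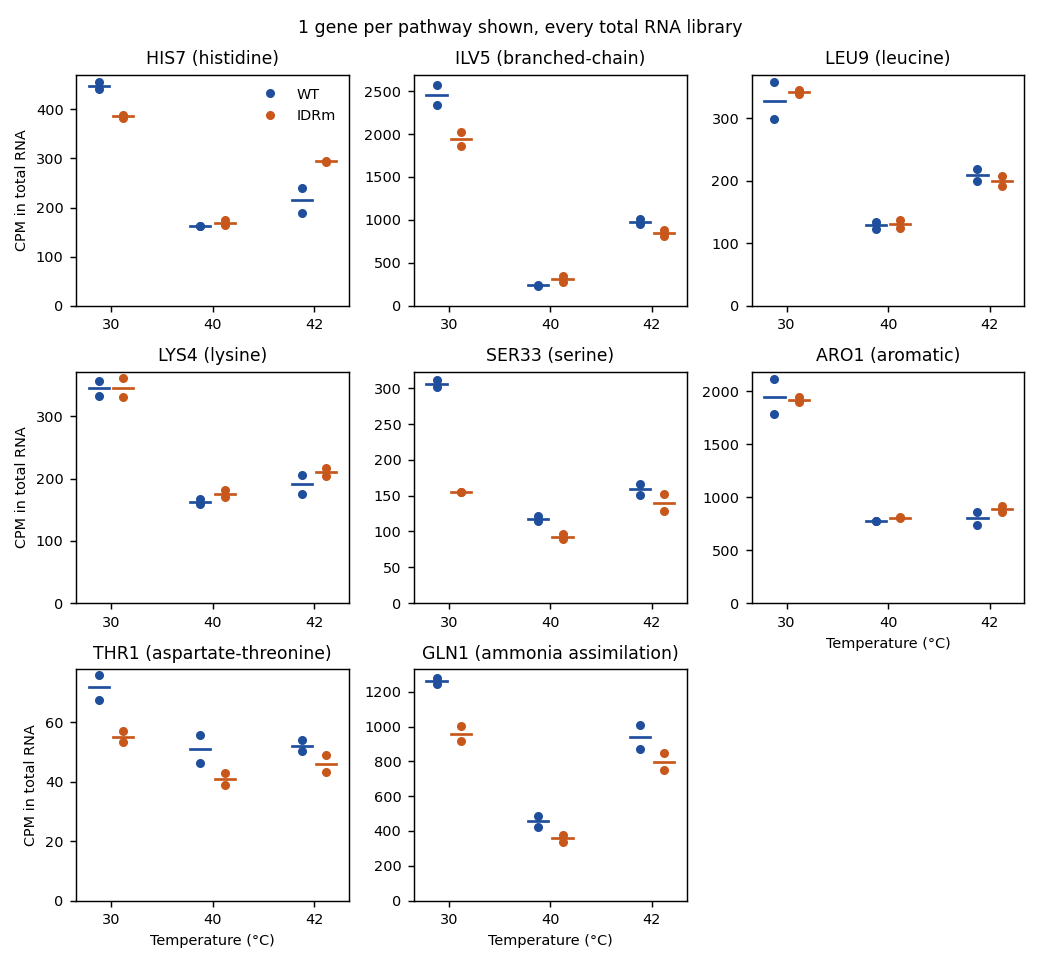
Level in total RNA (CPM, axis from 0) against temperature (°C) for 1 gene in each of 8 pathways; each point is 1 library, bars are means of 2 libraries, temperatures are evenly spaced categories, WT is blue and IDRm orange. ILV5, GLN1 and LEU9 are lowest at 40 °C, and HIS7 at 42 °C is higher in both IDRm libraries than in both WT libraries.

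LYS1 and ILV2 were the only members called higher at 40 °C in WT. LYS1, for the last step of lysine synthesis, rose by 0.83 ± 0.14 in WT and 0.97 ± 0.15 in IDRm (log2). Its levels were low, at 16.9 and 15.9 CPM at 30 °C, 29.7 and 28.6 CPM at 40 °C, and 17.4 and 16.4 CPM at 42 °C in WT and 12.2 and 11.4 CPM at 30 °C, 25.7 and 20.8 CPM at 40 °C, and 18.5 and 18.5 CPM at 42 °C in IDRm. At 42 °C it was not called in WT (0.05 ± 0.15, adjusted p = 0.797), and in IDRm it was called higher (0.65 ± 0.15). ILV2, for the catalytic subunit of acetolactate synthase, was higher by 0.32 ± 0.12 in WT, a call lost in 9 of 11 alternatives.

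Some of the genes that fell at 40 °C stood higher again at 42 °C. In WT 13 of the 47 genes were higher at 42 than at 40 °C and 5 were lower (all genes: 24.6% higher, 22.3% lower). All 13 that were higher were among the 36 called lower at 40 °C. Both calls rest on the same 40 °C libraries, so the overlap is not separate evidence, and its share over all genes was not computed. The largest rises from 40 to 42 °C were ILV5 at 2.05 ± 0.14, GLN1 at 1.05 ± 0.13 and LYS20 at 1.03 ± 0.20 (log2). Among those lower at 42 than at 40 °C were LYS1, HIS4, ARG5,6 and ARG4, with LYS1 at -0.78 ± 0.14 and HIS4 at -0.73 ± 0.15. In IDRm 18 were higher and only ARG5,6 was lower (all genes: 21.2% higher, 21.1% lower), and the 4 serine genes were all among those higher. Without replicate 2 of WT total RNA at 40 °C the WT count was 11 in place of 18. LYS20 and LYS21 are 91.9% identical in their coding sequence and share a run of 278 identical bases, so the split of reads between them is uncertain.

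In IDRm fewer members were called lower than in WT, and the test of the difference itself follows further on. At 40 °C 27 of the 47 genes fell and 3 rose (all genes: 32.6% fell, 37.8% rose), with a median of -0.43 against 0.08 over all genes. At 42 °C 18 fell and 6 rose (all genes: 31% fell, 33.7% rose), with a median of -0.22 against 0.03. With size factors by median of ratios the 42 °C split was 3 higher and 22 lower, and with library totals alone 3 higher and 23 lower. Without replicate 1 of IDRm total RNA at 42 °C the count of called genes was 15 in place of 24. The 6 genes that rose at 42 °C were SER3, LYS1, LYS21, HOM3, HIS5 and HOM2, led by SER3 at 0.75 ± 0.10 (log2). Among the lowest were GLT1 at -1.23 ± 0.14 and ILV1 at -1.21 ± 0.14. All 27 genes that fell in IDRm at 40 °C, and all 18 at 42 °C, also fell in WT. The share of all genes lower in both strains was not computed, so this overlap is not known to be particular to the 47 genes. HIS5 and HOM3 were called lower in WT and higher in IDRm at both temperatures. Of the calls in IDRm, that of HIS5 at 40 °C and that of HOM3 at 42 °C were each lost in 8 of 11 alternatives, that of LYS21 at 42 °C in 7 and that of HOM2 in 9. By pathway, the median at 42 °C in IDRm was -0.46 for arginine, -0.47 for branched-chain, -0.41 for leucine and -0.39 for aromatic genes. It was 0.06 for histidine, 0.19 for lysine, -0.09 for serine, -0.04 for aspartate-threonine and -0.27 for ammonia assimilation genes.

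At 30 °C in IDRm 8 were lower and 1 was higher than in WT (all genes: 4.99% lower, 7.93% higher). With library totals alone the split was 3 higher and 5 lower. SER3, for phosphoglycerate dehydrogenase, stood at 319.6 and 308 CPM in WT and 120.5 and 128 CPM in IDRm, a log2 difference of -1.33 ± 0.10. Its paralog SER33 differed by -0.98 ± 0.11. GLT1, for glutamate synthase, stood at 2585 and 2125 CPM in WT and 1376 and 1299.9 CPM in IDRm (-0.82 ± 0.14). These 3 kept their call in every alternative, and the IDRm libraries of each lay below its WT libraries. SER3 and SER33 are 82.8% identical in coding sequence with a longest shared run of 56 bases. The other called genes were ARG5,6, HIS4, LYS21, HOM3 and GLN1, which were lower, and LEU4, which was higher (0.46 ± 0.12), and each lost its call in 3 to 7 of 11 alternatives. The number of called genes was 3 without either IDRm total RNA library at 30 °C and 19 without replicate 2 of WT at 30 °C.

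The heat change differed between the strains in arginine, histidine and serine genes and in HOM3. Tested as an interaction, the change from 30 to 42 °C was more positive in IDRm for 10 of the 47 genes and more negative for 0, where 5.22% and 6.55% of all genes were called in these directions. They included the arginine genes ARG1, ARG4 and ARG5,6, the histidine genes HIS4, HIS5 and HIS7, the serine genes SER3 and SER33, and HOM3. No branched-chain, leucine, lysine, aromatic or ammonia assimilation gene was called. ARG5,6, HIS4, SER3, SER33 and HOM3 were also called lower in IDRm than in WT at 30 °C, a level that enters the difference in heat change. The median difference was 0.84 for histidine, 0.72 for arginine and 0.65 for serine genes, 0.41 for lysine, 0.34 for aspartate-threonine and 0.32 for aromatic genes, and 0.24, 0.16 and 0.14 for branched-chain, ammonia assimilation and leucine genes. Over all genes the median was 0.01. The lowest member was ILV1 at -0.27 ± 0.20, which was not called. Of the 10 genes, 7 kept the call in every alternative, and of 15 alternatives ARG5,6 lost it in 1, HIS7 in 4 and HOM3 in 8. Without replicate 2 of WT total RNA at 30 °C, 23 genes were called.

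ARG1, for argininosuccinate synthetase, had the largest difference, 1.54 ± 0.17 (log2, adjusted p = 6.85e-05). It stood in WT at 510.1 and 449.9 CPM at 30 °C, 138 and 143 CPM at 40 °C, and 126 and 157 CPM at 42 °C, and in IDRm at 361 and 397 CPM at 30 °C, 201 and 220.2 CPM at 40 °C, and 328 and 321 CPM at 42 °C. At 30 °C the WT libraries were above the IDRm libraries, and at both heated temperatures they were below them. ARG4, for the lyase that follows, went in WT through 826 and 806 CPM at 30 °C, 454 and 406 CPM at 40 °C, and 314 and 376 CPM at 42 °C, and in IDRm through 779.8 and 814 CPM at 30 °C, 618 and 697 CPM at 40 °C, and 714 and 692 CPM at 42 °C. The strains overlapped at 30 °C and did not overlap when heated.

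HIS4 stood in WT at 1894 and 1414 CPM at 30 °C, 1357 and 1304 CPM at 40 °C, and 701 and 905 CPM at 42 °C, and in IDRm at 1136 and 1201 CPM at 30 °C, 1312 and 1363 CPM at 40 °C, and 1367 and 1380.5 CPM at 42 °C. WT fell at 42 °C (-1.04 ± 0.15) and IDRm was not called (0.23 ± 0.15, adjusted p = 0.178), and the difference between them was 1.28 ± 0.21. HIS5, for the histidinol phosphate aminotransferase, stood in WT at 302 and 262 CPM at 30 °C, 214 and 216 CPM at 40 °C, and 174 and 186 CPM at 42 °C, and in IDRm at 253 and 272 CPM at 30 °C, 303 and 339 CPM at 40 °C, and 352 and 322 CPM at 42 °C. It was called lower in WT and higher in IDRm, with a difference of 1.01 ± 0.16 at 42 °C.

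SER3 stood in WT at 319.6 and 308 CPM at 30 °C, 215 and 233 CPM at 40 °C, and 238 and 228 CPM at 42 °C, and in IDRm at 120.5 and 128 CPM at 30 °C, 119 and 117 CPM at 40 °C, and 211 and 207 CPM at 42 °C. The strains were farthest apart at 30 °C and closest at 42 °C, so its interaction of 1.17 ± 0.15 comes with a lower starting level in IDRm. The same order held for SER33, with an interaction of 0.80 ± 0.16. HOM3, for aspartate kinase, stood in WT at 108 and 126 CPM at 30 °C, 84 and 92.8 CPM at 40 °C, and 108 and 78 CPM at 42 °C, and in IDRm at 80 and 76.9 CPM at 30 °C, 109.9 and 122 CPM at 40 °C, and 106 and 97.6 CPM at 42 °C. Its WT libraries at 42 °C spread across the IDRm range, and its difference was 0.71 ± 0.20 (adjusted p = 0.0309).

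**Figure D3:**
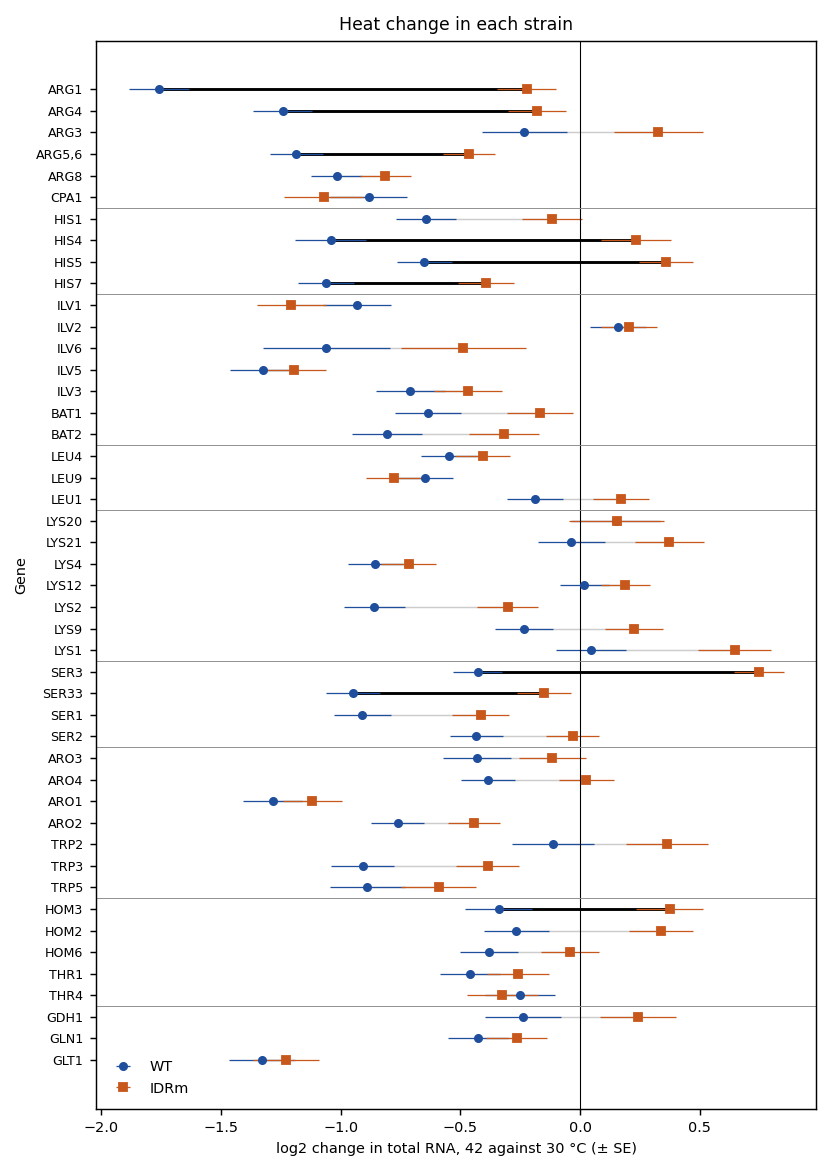
Log2 change in total RNA from 30 to 42 °C for the named members, WT as blue circles and IDRm as orange squares with standard errors; a black line joins the strains where the difference was called, a grey line where it was not. The black lines lie in the arginine, histidine, serine and aspartate-threonine rows, and each has IDRm on the right.

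At 40 °C the difference between strains was called for 4 genes, among them ARG1 at 0.92 ± 0.17, HIS5 at 0.69 ± 0.16 and HOM3 at 0.97 ± 0.20 (log2), all more positive in IDRm (all genes: 1% more positive, 0.64% more negative). The lowest member, not called, was CPA1 at -0.23 ± 0.23. No call was kept in every alternative. The count was 0 without replicate 1 or 2 of WT at 40 °C, replicate 1 of IDRm at 30 °C or replicate 2 of IDRm at 40 °C, 1 without replicate 2 of IDRm at 30 °C, and 8 without replicate 2 of WT at 30 °C.

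At 40 °C in WT, 18 of the 25 genes with the Gcn4 letters and 18 of the 22 without were called lower, with medians of -0.63 and -0.57. At 42 °C the counts in WT were 20 of 25 and 15 of 22. Of the 10 genes whose heat change at 42 °C differed between strains, 8 had the letters and SER3 and SER33 did not. The median difference between strains was 0.56 for the 25 genes with the letters and 0.31 for the 22 without. These values are a description of the 47 genes, and the part of the factor in them was not tested. GCN4 (YEL009C) RNA itself stood in WT at 375 and 352 CPM at 30 °C, 172 and 189.6 CPM at 40 °C, and 223 and 164 CPM at 42 °C, and in IDRm at 341 and 316 CPM at 30 °C, 229.9 and 219 CPM at 40 °C, and 179 and 169 CPM at 42 °C. It fell in both strains. Its difference between strains in the heat change was 0.46 at 40 °C, which was not called, and -0.0027 ± 0.19 at 42 °C (adjusted p = 0.995).

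A further list of 25 genes of the same and neighbouring pathways (among them HIS2, HIS3, HIS6, LEU2, TRP1, TRP4, ARG2, ARG7, ORT1, ARO7, ARO8, ARO9, TYR1, PHA2, PRO1, PRO2, PRO3, ASN1, ASN2, GDH3, LYS5, AAT2, ALT1 and GLY1) was counted in the same way. In it (all genes in brackets) 14 fell (32.6%) and 2 rose (37.1%) at 40 °C in WT, and 14 fell (28.1%) and 1 rose (33.3%) at 42 °C. In IDRm 16 fell (32.6%) and 2 rose (37.8%) at 40 °C, and 11 fell (31%) and 4 rose (33.7%) at 42 °C. The difference between strains at 42 °C was called for TRP4, of the tryptophan branch, at 0.66 ± 0.16 and for ORT1, the ornithine transporter gene, at 0.52 ± 0.15 (log2), both named after their values were seen. These were 2 of the 25 genes, near the shares over all genes (5.22% more positive, 6.55% more negative). Of 8 regulator genes, 5 fell in WT and 5 in IDRm at 40 °C (all genes: 32.6% and 32.6%), with medians of -0.80 and -0.61. None had a called difference between strains in the heat change, and 8 genes are few beside shares of this size. These 8 were GCN4, GCN2, LEU3, LYS14, ARG80, ARG81, BAS1 and GLN3.

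RNA in the pellet was compared with soluble RNA gene by gene, as the log2 of pellet level over soluble level, called the pellet ratio from here on. In WT at 30 °C, 25 of the 47 genes were lower and 12 higher in the pellet (all genes: 34.8% lower, 33.4% higher). The counts in WT were 27 and 12 at 40 °C (all genes: 36.1% and 37.9%) and 31 and 12 at 42 °C (36.7% and 42.4%). In IDRm they were 23 and 8 at 30 °C (33.7% and 34.5%), 24 and 10 at 40 °C (35.2% and 36.6%) and 28 and 12 at 42 °C (37.4% and 41.3%). The median of the 47 genes was -0.56, -0.52 and -1.14 in WT at 30, 40 and 42 °C, and -0.30, -0.40 and -0.67 in IDRm, with medians over all genes between -0.02 and 0.16. With library totals alone these medians of the 47 genes were -0.42, -0.17 and -0.64 in WT and -0.22, -0.14 and -0.46 in IDRm, and with size factors by median of ratios that of IDRm at 30 °C was -0.17. With library totals alone the split was 16 higher and 22 lower in WT and 16 higher and 20 lower in IDRm at 40 °C, and with median-of-ratios factors it was 11 higher and 19 lower in IDRm at 30 °C. In WT at 42 °C the split was 8 higher and 33 lower without soluble replicate 1 and 14 higher and 29 lower without soluble replicate 2, the 2 libraries that differed most.

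The pathways were spread over the fractions. In WT at 42 °C the median pellet ratio was 0.35 for arginine and 0.56 for leucine genes. It was -1.63 for histidine, -1.57 for branched-chain, -0.75 for lysine, -1.67 for serine, -1.26 for aromatic, -1.21 for aspartate-threonine and -1.83 for ammonia assimilation genes. In IDRm at 42 °C the median was 0.32 for arginine, 0.85 for leucine, -1.72 for histidine and -1.07 for branched-chain genes. For lysine it was -0.33, for serine -1.16, for aromatic -0.85, for aspartate-threonine -0.41 and for ammonia assimilation genes -1.64. All 4 histidine genes were lower in the pellet at 40 and at 42 °C in both strains.

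In all 6 comparisons 19 of the 47 genes were lower in the pellet and 5 were higher (all genes: 22% lower and 22.3% higher in all 6). Among the 5 were ARG5,6, CPA1, ARO1 and GLT1. The histidine genes HIS1, HIS5 and HIS7, the serine genes SER1 and SER2, and ARO2, ARO3, ARO4 and TRP2 of the aromatic pathway were among the 19. So were ARG4, BAT1, BAT2, LYS9, LYS12, LYS21, HOM2, HOM6, GDH1 and GLN1. In its least stable comparison LYS21 lost the call in 6 of the alternatives. In theirs, ARO2 and BAT2 lost it in 3, TRP2 in 2, and CPA1 and HIS7 in 1. HOM2, for aspartate semialdehyde dehydrogenase, had the lowest ratio in both strains at 42 °C, -2.81 ± 0.22 in WT and -2.68 ± 0.22 in IDRm. In WT its pellet libraries stood at 425 and 388 CPM at 30 °C, 340.2 and 363 CPM at 40 °C, and 399 and 387 CPM at 42 °C, while its soluble libraries stood at 1333 and 1429.7 CPM at 30 °C, 1855 and 1808 CPM at 40 °C, and 2010.2 and 3493 CPM at 42 °C. At 30 °C HOM2 was also the lowest in both strains, and at 40 °C it was the lowest in WT and HOM6 in IDRm (-1.96 ± 0.23). The highest members were ILV6 in WT at 30 °C (1.57 ± 0.15) and GLT1 in the other 5 comparisons. The arginine pathway held both kinds, with ARG4 at -1.37 ± 0.19 and CPA1 at 0.93 ± 0.15 in WT at 42 °C.

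The ratio went with the length of the coding sequence. Spearman's rank correlation of length and ratio over the 47 genes was 0.533 in WT at 30 °C and 0.53 at 42 °C, and 0.648 and 0.684 in IDRm. Over 5762 protein-coding genes it was 0.471, 0.579, 0.541 and 0.654 in the same order. Genes share the same libraries, so these are descriptions across genes. In WT at 42 °C the median ratio was -1.53 for the 29 members under 1500 bases, -0.99 for the 13 members from 1500 up to 2500 bases and 1.36 for the 5 members of 2500 bases or more. Over all genes the medians of these classes were -0.61, 0.81 and 1.70. In the middle class 8 of the 13 members were called lower. The long members include GLT1, ARO1, LYS2 and ARG5,6, and all 5 were called higher in the pellet at 42 °C in both strains. In IDRm at 42 °C the median of the longest class was 1.82 for the 5 members and 1.89 over all genes. Shares of called genes by length class were not computed over all genes, so these counts cannot be set against them.

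**Figure D4:**
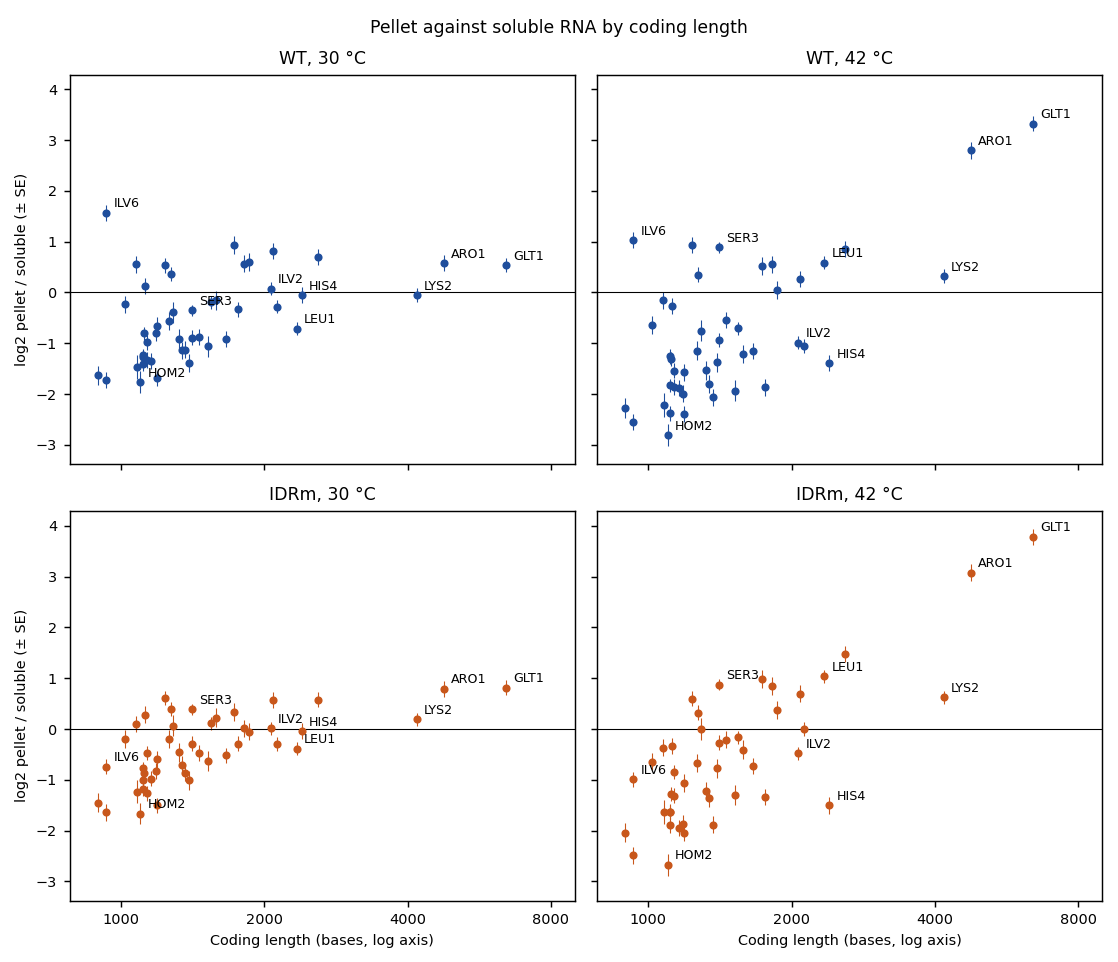
Log2 ratio of pellet to soluble level (± SE) against coding length in bases (log axis) for the named members, in WT (blue) and IDRm (orange) at 30 and 42 °C. GLT1 and ARO1 at the long end lie highest at 42 °C, and HOM2 lies lowest.

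On heating the pellet ratio changed in both directions among the members. Each library is scaled within itself, so a change of ratio does not show that RNA passed from 1 fraction to the other. In WT the ratio rose for 5 genes and fell for 9 at 40 °C (all genes: 13% rose, 7.98% fell), and rose for 5 and fell for 19 at 42 °C (23.6% and 14.7%). In IDRm it rose for 6 and fell for 6 at 40 °C (13% and 8.89%), and rose for 8 and fell for 15 at 42 °C (23.5% and 13.7%). The split depended on the scaling. With library totals alone the splits were 10 higher and 3 lower in WT at 40 °C, 9 higher and 10 lower in WT at 42 °C, 11 higher and 4 lower in IDRm at 40 °C and 11 higher and 11 lower in IDRm at 42 °C, and with median-of-ratios factors 5 higher and 30 lower in WT at 42 °C, 5 higher and 11 lower in IDRm at 40 °C and 6 higher and 22 lower at 42 °C. In WT at 42 °C the split was 5 higher and 29 lower without soluble replicate 1 of 42 °C and 8 higher and 13 lower without soluble replicate 2. Library totals moved the median of all genes by up to 0.33 in the changes of ratio and 0.47 in the ratios themselves. The WT count at 40 °C was 8 without replicate 1 of the 30 °C or of the 40 °C pellet, and 9 without replicate 1 of the 30 °C or of the 40 °C soluble RNA.

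GLT1, for glutamate synthase, had the highest change at both temperatures in both strains. The lowest were GDH1 in WT at 40 °C (-1.05 ± 0.23) and HIS4 in IDRm at 40 °C (-1.14 ± 0.23). The soluble libraries of GLT1 in WT stood at 2158 and 2053 CPM at 30 °C, 407 and 349.6 CPM at 40 °C, and 209.8 and 292 CPM at 42 °C, and its pellet libraries at 3124 and 3003 CPM at 30 °C, 2722 and 2688 CPM at 40 °C, and 2641 and 2387 CPM at 42 °C. The soluble level fell steeply and the pellet level fell little, so the ratio went from 0.54 ± 0.14 to 2.84 ± 0.15 and 3.33 ± 0.16 (log2). In IDRm it went from 0.81 ± 0.14 to 2.57 ± 0.15 and 3.79 ± 0.16. At 42 °C ARO1 was next in both strains, and its WT soluble libraries stood at 1544 and 1558 CPM at 30 °C, 540.2 and 502 CPM at 40 °C, and 221 and 356 CPM at 42 °C and its pellet libraries at 2345 and 2288 CPM at 30 °C, 1656 and 1801 CPM at 40 °C, and 2009 and 2008 CPM at 42 °C. Its change of ratio at 42 °C was 2.22 ± 0.23 in WT and 2.29 ± 0.23 in IDRm.

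LEU1, for isopropylmalate isomerase, had a pellet ratio called higher at 42 than at 30 °C, with no such call at 40 °C. In WT its pellet libraries stood at 1471 and 1361 CPM at 30 °C, 1377 and 1449.7 CPM at 40 °C, and 2858 and 2806 CPM at 42 °C, and its soluble libraries at 2389 and 2260.0 CPM at 30 °C, 2392 and 2254 CPM at 40 °C, and 1639 and 2133 CPM at 42 °C. In IDRm the pellet stood at 1404 and 1526 CPM at 30 °C, 1262 and 1322 CPM at 40 °C, and 3096 and 3442 CPM at 42 °C, and the soluble RNA at 1832 and 1993 CPM at 30 °C, 2155 and 1904 CPM at 40 °C, and 1584 and 1602 CPM at 42 °C. Its change of ratio was -0.0019 ± 0.18 at 40 °C and 1.30 ± 0.18 at 42 °C in WT, and -0.27 ± 0.18 and 1.42 ± 0.18 in IDRm, while total RNA of LEU1 was not called changed at either temperature in either strain.

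HIS4, ARO4, GDH1, GLN1 and BAT1 had a lower pellet ratio on heating at both temperatures in both strains, the 5 members called so in all 4 comparisons. ARO1 and GLT1 had a ratio called higher in all 4 (all genes: 2.61% lower and 6.33% higher). HIS4, ARO4 and GDH1 kept the call in each of 15 alternatives per comparison. BAT1 lost it at 40 °C in 7 alternatives in WT and 9 in IDRm, and GLN1 in 5 and 2 at 40 °C and in 3 in WT at 42 °C, with library totals among them except for GLN1 in IDRm. HIS4 stood in WT pellets at 1321 and 1163 CPM at 30 °C, 735 and 721 CPM at 40 °C, and 529 and 552 CPM at 42 °C and in WT soluble RNA at 1265 and 1309 CPM at 30 °C, 1504 and 1500.1 CPM at 40 °C, and 1099 and 1729 CPM at 42 °C. Its ratio at 30 °C was -0.05 ± 0.16 in WT and -0.05 ± 0.16 in IDRm, and it changed by -1.34 ± 0.23 in WT and -1.46 ± 0.23 in IDRm at 42 °C. HIS4 has a coding sequence of 2400 bases, and at 42 °C its ratio changed opposite to that of LEU1, of 2340 bases. ILV3, for dihydroxyacid dehydratase, had the lowest change in WT at 42 °C, -1.54 ± 0.22, and -1.05 ± 0.22 in IDRm. The pellet ratio of ILV5 rose at 40 °C (1.17 ± 0.24 in WT, 0.93 ± 0.24 in IDRm), when its total level was lowest. In WT it had a change of -0.91 ± 0.24 at 42 °C.

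**Figure D5:**
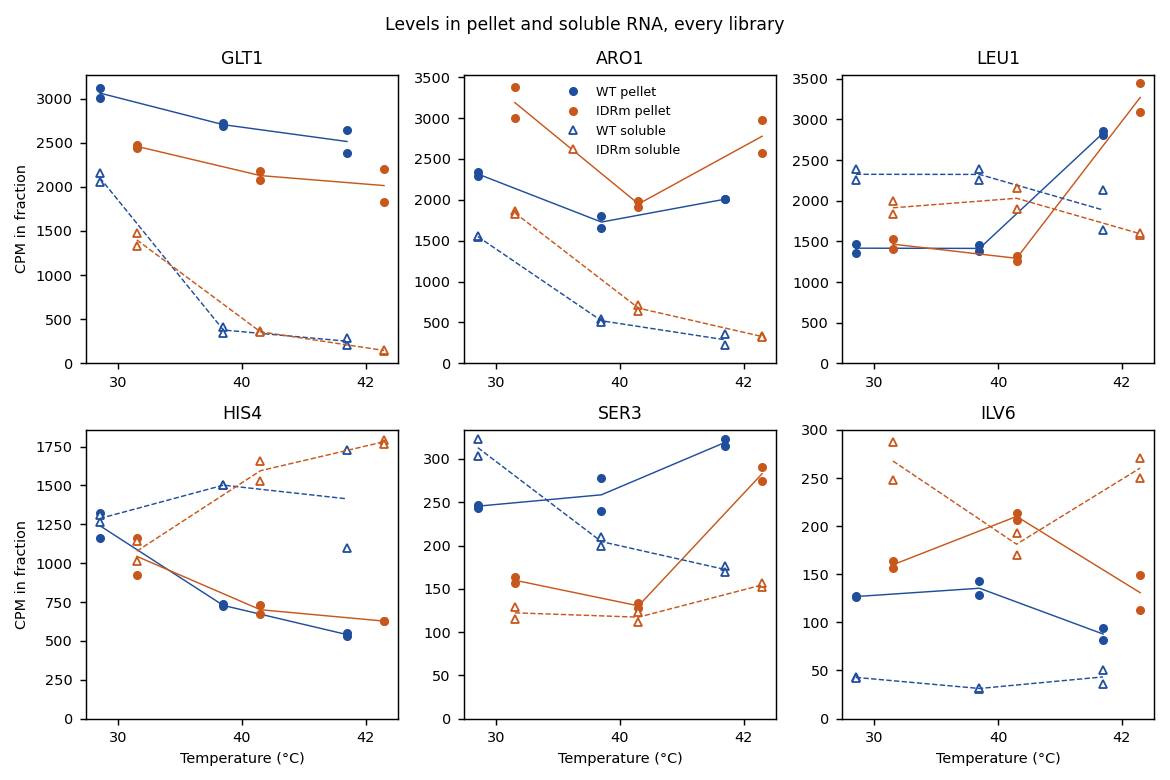
Level in pellet (filled circles, solid lines) and soluble RNA (open triangles, dashed lines) in CPM against temperature (°C) for 6 genes, each point 1 library and lines joining means, with temperatures as evenly spaced categories; WT is blue and IDRm orange. The soluble level of GLT1 and ARO1 drops on heating, the LEU1 pellet rises at 42 °C, and ILV6 has a low soluble level in WT at every temperature.

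The strains differed in the pellet ratio at 30 °C for SER3 and ILV6. The ratio was higher in IDRm for 1 gene and lower for 1 (all genes: 0.0977% higher, 0.993% lower). ILV6, for the regulatory subunit of acetolactate synthase, stood in WT soluble RNA at 43 and 42.6 CPM at 30 °C, 31 and 31.5 CPM at 40 °C, and 36 and 50.6 CPM at 42 °C, and in IDRm soluble RNA at 248 and 287 CPM at 30 °C, 193 and 169.9 CPM at 40 °C, and 271 and 249.8 CPM at 42 °C. Its pellet levels were 127 and 126 CPM at 30 °C, 128 and 143 CPM at 40 °C, and 82 and 93.7 CPM at 42 °C in WT, and 156 and 163 CPM at 30 °C, 206 and 214 CPM at 40 °C, and 149 and 113 CPM at 42 °C in IDRm. Every WT soluble library was below every IDRm soluble library, while the total RNA libraries of the strains overlapped at 30 °C (215 and 164 CPM in WT, 137 and 241 CPM in IDRm). How reads were assigned to genes is not given, and whether this affects ILV6 was not tested. The difference of ratios was -2.31 ± 0.21 (log2, adjusted p = 6.9e-06) and was kept in every alternative. The ratio of SER3 was -0.35 ± 0.11 in WT and 0.39 ± 0.11 in IDRm, and their difference of 0.74 ± 0.15 lost its call when any of 7 of the 8 libraries was left out, with 1 gene called in each case.

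No member had a called difference between strains in the heat change of its ratio. The edgeR test called 0 members and 0 of all 6141 genes at 40 °C (0% higher and 0% lower), where 209 genes had an unadjusted p under 0.05. At 42 °C it called 0 members and 7 genes (0.114% higher and 0% lower), where 663 genes had an unadjusted p under 0.05. DESeq2 called 1 member at 40 °C, SER3, and 2 at 42 °C, SER3 and TRP5. Without replicate 1 of WT soluble RNA at 42 °C the count was 10. At 40 °C the highest member was THR1 at 0.75 ± 0.34 and the lowest SER3 at -0.92 ± 0.22. The highest member at 42 °C was TRP5 at 1.07 ± 0.27 and the lowest SER3 at -0.75 ± 0.22 (log2, adjusted p = 0.136 and 0.173).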

How the data were processed

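RNA sequencing libraries of 18 groups with 2 libraries each were analysed. The submitters' processing notes name bcl2fastq 2.19.1, STAR 2.5.2b and the R64 build. The deposited values are raw counts per gene, whole numbers with no normalisation. How reads were assigned to genes, and whether by strand, is not given in the sources used here, so near-identical paralogs and overlapping genes are uncertain. Of the 6697 IDs, 683 had no match in the R64 annotation, and all 47 members matched.

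Genes passing filterByExpr (minimum count 10) were tested with the edgeR 4.0.16 quasi-likelihood test with robust dispersion and TMM scaling (R 4.3.3), in 1 model of the 12 total RNA libraries (6090 genes) and 1 of the 24 fraction libraries (6141 genes). All 47 members were tested in both. Adjusted p-values are Benjamini-Hochberg over all genes of a comparison, with 22 comparisons made. On data drawn with known changes in the WT total RNA comparison of 40 and 30 °C, 98% of genes changed by 1 log2 unit were called. Of those changed by 2, 100% were called, with 9 false calls among 6048 genes. For the change of pellet ratio in WT at 42 °C it was 89% and 100%, with 8 false calls among 6083 genes. The drawn counts had the same spread setting for every gene and library, and 100 well-covered genes were changed by each amount. These rates therefore need not hold for the real data. The members, pathways and further lists were chosen with earlier results of these data known. By rule, all members were to be named, 1 gene per pathway shown in every library (the largest WT change at 40 °C among genes averaging at least 32 CPM), and each comparison's highest and lowest members given. Where that rule calls for a gene left out of the text, it is not reported here, though counts and medians include it. Alternatives were DESeq2 1.42.0, other scalings, no filter, other models, a replicate block and leaving out each library. The labels tie no library to its own culture, so p-values measure the spread between libraries, which may be partly technical.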

Additional observations from a re-analysis of the deposited data

Results flagged for a closer look

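The results listed here are those in which the heat change or the pellet-soluble ratio differed between the strains by a test of the difference itself. In total RNA at 42 against 30 °C the log2 difference (IDRm minus WT) was 1.54 ± 0.17 for ARG1, 1.28 ± 0.21 for HIS4, 1.17 ± 0.15 for SER3 and 1.06 ± 0.17 for ARG4. It was 1.01 ± 0.16 for HIS5, 0.80 ± 0.16 for SER33, 0.72 ± 0.15 for ARG5,6, 0.71 ± 0.20 for HOM3 and 0.67 ± 0.17 for HIS7. Among the further genes it was 0.66 ± 0.16 for TRP4 and 0.52 ± 0.15 for ORT1. In total RNA at 40 against 30 °C it was 0.97 ± 0.20 for HOM3, 0.92 ± 0.17 for ARG1 and 0.69 ± 0.16 for HIS5. In the pellet-soluble ratio at 30 °C it was -2.31 ± 0.21 for ILV6 and 0.74 ± 0.15 for SER3. Among the members called at 42 °C, ARG5,6, HIS7 and HOM3 lost the call in some alternatives. No call at 40 °C was kept in every alternative, and of the ratio calls only that of ILV6 was. Groups of 2 libraries are too small for a search for single libraries that stand apart.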

How the results depend on the processing

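Of 294 recomputed counts of called members, 255 stayed within 1.5 times the reported count. Of 3320 recomputed values of single named members, 3116 kept their side of the threshold, 141 lost the call and 63 gained it. Of those with a call before or after, 0 reversed direction. Changes of direction in values called neither before nor after were not counted. The cause of the moves below was not tested. For IDRm against WT in total RNA at 30 °C (9 called), 5 were called with all 36 libraries in 1 model and 3 with only the compared groups. For the difference between strains at 40 °C (4 called), DESeq2 called 8, all libraries in 1 model 1 and library totals 2. For the change of ratio, only the compared groups gave 24 in WT at 40 °C (14 called) and 28 in IDRm at 40 °C (12 called), where DESeq2 and 1 model gave 20 each, and 1 model gave 37 in WT at 42 °C (24 called). Only the compared groups gave 6 for the strain difference in ratio at 30 °C (2 called). For the strain difference in the change of ratio, with 0 called at each temperature, DESeq2 gave 1 at 40 °C and 2 at 42 °C, and only the compared groups gave 1 at 40 °C. Leaving out 1 library gave 11 to 16 for WT total RNA at 42 against 40 °C, 15 to 22 for IDRm at 42 against 30 °C, 3 to 19 for the strains at 30 °C, 0 to 8 and 7 to 23 for their difference at 40 and 42 °C, 8 to 13 for the WT change of ratio at 40 °C, 1 to 2 for the strain difference in ratio at 30 °C and 0 to 10 for that in its change at 42 °C.

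Same-numbered libraries did not deviate together throughout (correlations of deviations -0.328 to 0.0356 in total RNA, -0.246 to 0.737 between pellet and soluble RNA), and the numbers were not taken to pair samples. With 2 libraries in each group these correlations cannot decide whether same-numbered libraries share a culture. A replicate block gave 1 in place of 0 called members for the strain difference in the change of ratio at 42 °C and moved no other count by over 1.5 times. For the change of ratio at 40 °C the block gave 18 in WT (14 called) and 18 in IDRm (12 called).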
